A study of Mus musculus with 12 samples.

Results

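The genes described here encode the 4 tissue inhibitors of metalloproteinases (Timp1, Timp2, Timp3 and Timp4) and the membrane-anchored inhibitor RECK (Reck), measured in cultured mouse cartilage. Their probes were found by gene symbol in the probe table, and the group was picked with earlier results of these data known. The 5 genes had 7 of the 46632 probes on the array and 5 of its 34509 symbols. Timp3 had 3 probes and each of the other genes had 1. All 7 probes passed the filter on low signal, which required detection above background on at least 4 of 12 arrays and left 18200 probes.

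TIMPs are secreted proteins that bind the active site of matrix metalloproteinases (MMPs) and block them. TIMP-1 and TIMP-2 are soluble inhibitors of MMPs, and TIMP-2 also takes part in the activation of pro-MMP-2 by MT1-MMP (Mmp14) at the cell surface. TIMP-3 binds to the extracellular matrix and, unlike the other TIMPs, is a strong inhibitor of aggrecanases of the ADAMTS family and of the sheddase ADAM17. TIMP-4 has a more restricted tissue distribution. RECK is held in the plasma membrane by a lipid anchor and restrains several MMPs and ADAM10. In cartilage these inhibitors oppose the enzymes that degrade aggrecan and type II collagen. The amount of mRNA for an inhibitor was measured here, and inhibitor protein and activity were not.

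The RNA came from femoral head cartilage of 21-day-old mice, kept in culture for 3 days. Explants were left untreated or received either IL-1α at 10 ng/mL or retinoic acid at 10 µM. Every mouse, in the untreated group too, carried TS-4/5∆cat, the in-frame deletions that remove the catalytic domains of ADAMTS-4 and ADAMTS-5, and no wildtype arrays were part of the comparison. Each treatment had 4 arrays, with 2 from the Donut line in batch 1 and 2 from the Gertrude line in batch 2, so that line and batch cannot be told apart. The labels describe 4 hips in a well and culture with 10% serum for 24 h before treatment. The paper describes 3 unpooled mice per treatment and serum-free medium, and nothing ties an array to a mouse, so p-values measure the spread between arrays. The comparisons ask which inhibitors respond to each catabolic agent and which respond differently to the 2 agents.

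Between 13786 and 14965 probes were detected on the arrays of batch 1, and between 16732 and 19485 on those of batch 2. The highest count belonged to untreated batch 2 replicate 2. Of 10 chondrocyte marker genes, 9 were kept, and 7 of these were detected on all 12 arrays. Matn3 was detected on none, and with retinoic acid Hapln1 was detected on 2 of 4 arrays and Col11a1 on 3 of 4. The summed normalised intensity of the 9 kept markers lay between 76652 and 93443 in untreated explants, between 45152 and 62530 with IL-1α and between 15342 and 21725 with retinoic acid. At a limma adjusted p under 0.05, all 9 were called lower with retinoic acid than untreated, and 7 of 9 with IL-1α. Among all probes tested, 35.4% and 29.3% were called in these comparisons. The markers not called with IL-1α were Col2a1 (log2 change -0.20) and Comp (-0.29). In bulk tissue, fewer chondrocytes and less RNA per chondrocyte cannot be told apart, which applies to each result below.

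With retinoic acid, Timp3 was 2.70-fold lower than in untreated explants by its brightest probe, Timp4 was not detected on any array, and Reck was slightly lower. With IL-1α, Timp1 was 1.55-fold higher and Reck was 1.54-fold lower. Timp2 passed the test in none of the 3 comparisons. Of the 7 probes, 4 were called lower and 0 higher by retinoic acid against untreated, at a limma adjusted p under 0.05. Among all 18200 probes tested, 35.4% were called in that comparison. IL-1α against untreated gave 2 higher and 2 lower, against 29.3% of all probes. Retinoic acid against IL-1α gave 0 higher and 3 lower, against 31.1% of all probes. The Timp4 probe passed the filter only through untreated and IL-1α arrays of batch 2, so it had to be lower with retinoic acid, and without it the counts against untreated and against IL-1α were 3 and 2. With only 7 probes, nothing is read from the distance between these counts and the background. The median log2 change over the 7 probes was -0.46, -0.11 and -0.60 in the 3 comparisons, in the same order, beside 0.02, 0.02 and -0.03 over all probes. These medians include Timp4, and 3 of the 7 values come from Timp3. The -0.60 is the value of Timp3 probe ILMN_2614759, which was undetected on all 6 arrays of batch 1. Nothing is read from the medians either.

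**Figure D1:**
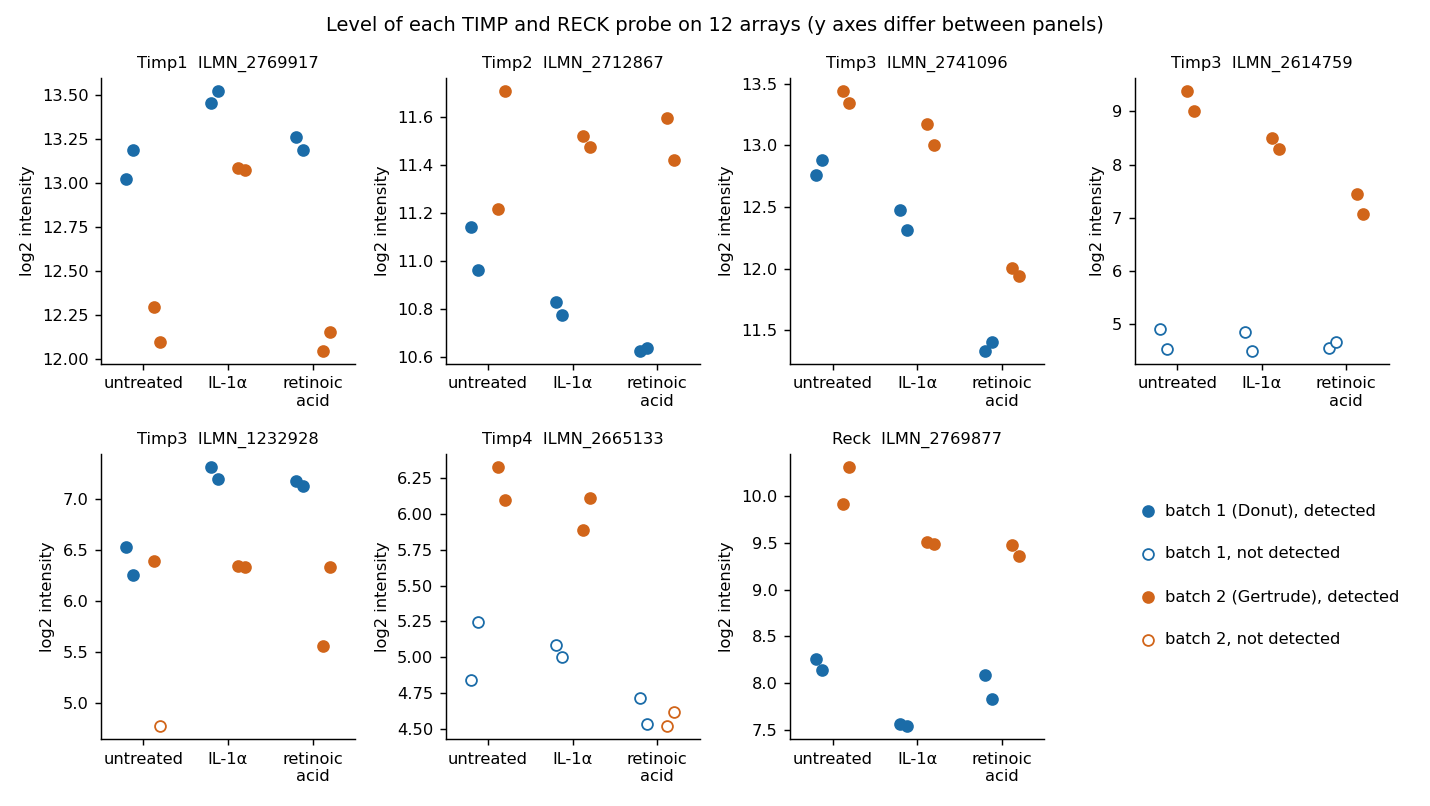
Normalised log2 intensity of each of the 7 probes on the 12 arrays, by treatment (x axis) and batch (colour), with open points where the probe was not detected. Timp3 ILMN_2741096 is lowest with retinoic acid in both batches, and Timp3 ILMN_2614759 is undetected on all 6 arrays of batch 1.

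Timp3, the matrix-bound inhibitor of aggrecanases, had its brightest probe, ILMN_2741096, detected on all 12 arrays. Its normalised log2 intensity in untreated explants was 12.76 and 12.88 in batch 1 and 13.44 and 13.34 in batch 2. With IL-1α it was 12.47 and 12.32 in batch 1 and 13.17 and 13.01 in batch 2. With retinoic acid it was 11.34 and 11.41 in batch 1 and 12.01 and 11.94 in batch 2. Every retinoic acid array lay below every untreated and every IL-1α array. The untreated readings of batch 2 lay near the top of the normalised scale, where the highest value of any probe was 14.24. The level fell by 1.43 with retinoic acid against untreated (SE 0.11, 95% interval -1.67 to -1.20, limma adjusted p = 3.71e-07, n = 4). A two-sided exact permutation test of the 8 arrays gave p = 0.0286, the smallest that 4 against 4 allows. The log2 change was -1.45 in batch 1 and -1.42 in batch 2, and the difference between the batches was 0.03 (95% interval -0.39 to 0.45).

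IL-1α gave a smaller change of the same Timp3 probe. The log2 change against untreated was -0.36 (SE 0.11, limma adjusted p = 0.0228), with -0.43 in batch 1 and -0.30 in batch 2. The untreated and IL-1α arrays overlapped, and the two-sided exact permutation test gave p = 0.229. This call was lost when arrays were scaled to one median instead of quantile normalised (log2 change -0.26, limma adjusted p = 0.279). It was also lost when 1 of 5 arrays was left out, namely untreated batch 1 replicate 1 (adjusted p = 0.0531), untreated batch 1 replicate 2 (0.0846), IL-1α batch 1 replicate 1 (0.0512), IL-1α batch 1 replicate 2 (0.108) or IL-1α batch 2 replicate 2 (0.0518). Set directly against each other, retinoic acid left Timp3 2.10-fold below IL-1α, a log2 change of -1.07 (SE 0.11, limma adjusted p = 6.07e-06), and no arrays of the 2 treatments overlapped.

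The other Timp3 probes did not follow the brightest one on every array. Probe ILMN_2614759 was undetected on all 6 arrays of batch 1, where its raw intensity lay between 29.8 and 48.2, and detected on all 6 of batch 2, at 274.6 to 1014.8. Its level in batch 2 was at least 7.55-fold higher than in batch 1, where the lowest signal detected on each array sets the bound. In batch 2 the log2 intensity was 9.38 and 9.01 untreated, 8.49 and 8.29 with IL-1α and 7.45 and 7.07 with retinoic acid. Within that batch the 3 treatments did not overlap and kept the order of the brightest probe.

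Within batch 2, ILMN_2614759 was 3.82-fold lower with retinoic acid than untreated (log2 change -1.93, SE 0.19, limma adjusted p = 1.74e-06). IL-1α against untreated gave -0.80 (limma adjusted p = 0.00806), and retinoic acid against IL-1α gave -1.13 (limma adjusted p = 0.00034). Over both batches the change with retinoic acid against untreated was -1.03 (limma adjusted p = 0.0117), a mean that includes 4 arrays without detected signal. That call was lost without any 1 of the 4 untreated and retinoic acid arrays of batch 2, at adjusted p between 0.053 and 0.0632, and with no filter on low signal (adjusted p = 0.102).

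Probe ILMN_1232928, also annotated to Timp3, was dim and gave no fall. Its raw intensity lay between 47.2 and 178.1, beside 1900.5 to 15148.7 for ILMN_2741096. It was detected on 11 of 12 arrays, at 6.53, 6.26 and 6.39 on the untreated arrays where it was detected, and read 4.77 on untreated batch 2 replicate 2, where it was not. With IL-1α it was 7.32 and 7.20 in batch 1 and 6.34 and 6.33 in batch 2. With retinoic acid it was 7.18 and 7.13 in batch 1 and 5.55 and 6.33 in batch 2. In batch 1 both treatments lay above untreated, and in batch 2 the treatments overlapped it.

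The log2 change of ILMN_1232928 with IL-1α against untreated was 0.81 (SE 0.27, limma adjusted p = 0.0381), a call that rested on most single arrays. The adjusted p was 0.0841 with scaling to one median, 0.0514 with normalisation within each batch and 0.197 with no filter. It lay between 0.0505 and 0.166 without untreated batch 1 replicate 1, untreated batch 1 replicate 2, untreated batch 2 replicate 2 or any 1 of the 4 IL-1α arrays. With retinoic acid against untreated the log2 change was 0.56 (95% interval -0.02 to 1.15, limma adjusted p = 0.125). It passed the threshold without untreated batch 2 replicate 1 (0.92, limma adjusted p = 0.00316) or retinoic acid batch 2 replicate 1 (0.87, limma adjusted p = 0.0112). The change was smaller without untreated batch 2 replicate 2, the undetected array (0.27, limma adjusted p = 0.463), or retinoic acid batch 2 replicate 2 (0.35, limma adjusted p = 0.381). After each batch was centred on its own mean, the Pearson correlation over the 12 arrays between ILMN_2741096 and ILMN_2614759 was 0.72, and it was -0.29 between ILMN_2741096 and ILMN_1232928. The 0.72 includes the 6 arrays of batch 1, where ILMN_2614759 was undetected. The arrays of a treatment are shared by all 3 probes. The position of each probe in the transcript was not analysed here, so which transcripts each one reads is not known from these values.

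Timp1, which encodes a soluble inhibitor of MMPs, was higher with IL-1α in both batches. Untreated explants gave 13.02 and 13.19 in batch 1 and 12.30 and 12.10 in batch 2. With IL-1α the log2 intensity was 13.45 and 13.52 in batch 1 and 13.09 and 13.07 in batch 2. With retinoic acid it was 13.26 and 13.19 in batch 1 and 12.05 and 12.16 in batch 2. Within each batch both IL-1α arrays lay above the untreated ones, while the groups overlapped across batches.

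The log2 change of Timp1 with IL-1α was 0.63 (SE 0.15, 95% interval 0.31 to 0.96, limma adjusted p = 0.00694), and the two-sided exact permutation test, which ignores the batches, gave p = 0.114. It was 0.38 in batch 1 and 0.88 in batch 2. With retinoic acid the log2 change against untreated was 0.01, with a 95% interval from -0.31 to 0.34 and a limma adjusted p of 0.961, and it was 0.12 in batch 1 and -0.10 in batch 2. Retinoic acid against IL-1α gave a log2 change of -0.62 (limma adjusted p = 0.00644), with -0.26 in batch 1 and -0.98 in batch 2. Quantile normalisation gives every array the same highest log2 intensity, 14.24, and Timp1 in batch 1 lay near the top of that normalised scale. In raw intensity Timp1 reached 12014.7 in batch 1 and 11160.7 in batch 2.

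**Figure D2:**
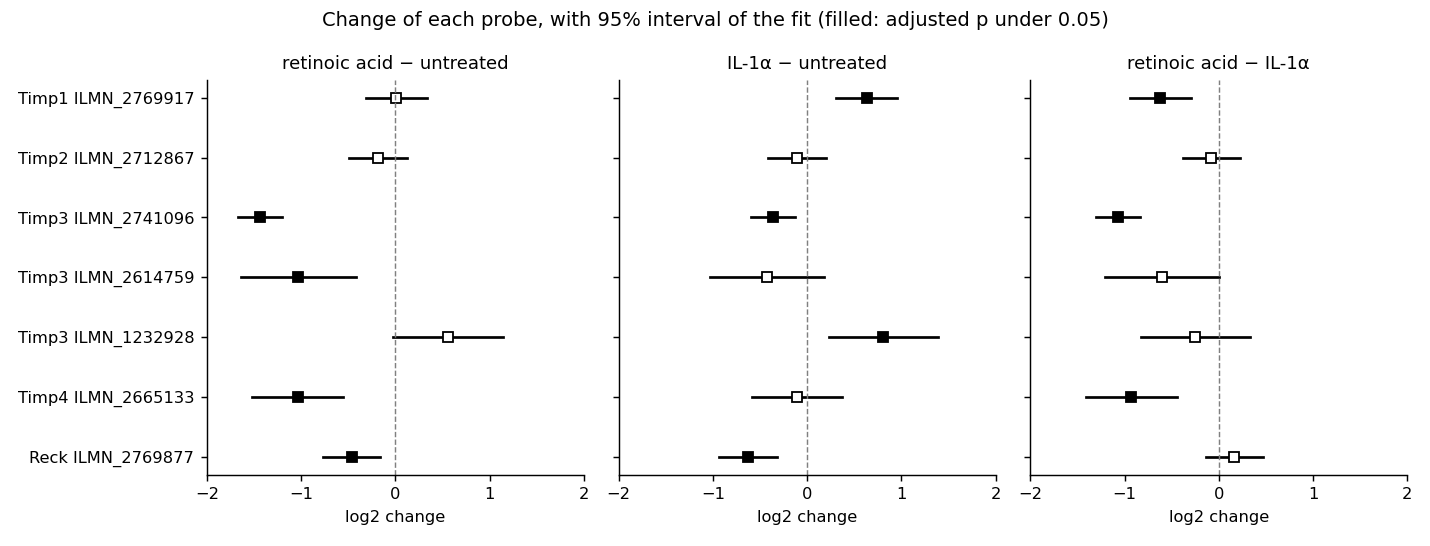
Log2 change of each probe (squares) with the 95% interval of the fit (lines) in 3 comparisons, filled where the limma adjusted p was under 0.05. Timp3 ILMN_2741096 fell by 1.43 with retinoic acid, and Timp1 rose by 0.63 with IL-1α. The values of Timp4 and Timp3 ILMN_2614759 include undetected arrays and are not measured folds. Timp3 ILMN_1232928 was detected on 3 of 4 untreated arrays.

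Timp2, the inhibitor that also takes part in pro-MMP-2 activation, differed little between treatments. Its log2 intensity was 11.14 and 10.96 in batch 1 and 11.22 and 11.71 in batch 2 without treatment. With IL-1α it was 10.83 and 10.77 in batch 1 and 11.52 and 11.48 in batch 2, and with retinoic acid 10.63 and 10.64 in batch 1 and 11.60 and 11.42 in batch 2. In batch 1 the retinoic acid arrays were lowest and the untreated highest, whereas in batch 2 the groups overlapped.

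The 95% interval of the Timp2 change was -0.49 to 0.12 for retinoic acid against untreated, -0.41 to 0.20 for IL-1α against untreated and -0.38 to 0.23 for retinoic acid against IL-1α. The limma adjusted p was 0.34, 0.612 and 0.722 in that order. Without untreated batch 2 replicate 1, the log2 change with retinoic acid against untreated was -0.35 and passed the threshold (limma adjusted p = 0.0369), and with scaling to one median it was 0.01.

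Timp4, the TIMP with the most restricted distribution, was dim. It was undetected on all 6 arrays of batch 1. In batch 2 it was detected at 6.33 and 6.10 untreated and at 5.89 and 6.11 with IL-1α, and it was undetected with retinoic acid, where it read 4.52 and 4.61. The 8 undetected readings are at background and have no order.

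In batch 2 Timp4 was at least 2.27-fold lower with retinoic acid than untreated, and at least 1.96-fold lower than with IL-1α. Over both batches no bound is given, because no group was detected in batch 1. The limma adjusted p of the fit was 0.00277 and 0.00632, but the probe was tested only because of the groups where it was detected, so these values are not support for the fall. Without any 1 of the 4 detected arrays, or with detection required on all 12, Timp4 was not tested. The call against IL-1α was lost with no filter (limma adjusted p = 0.066), and with treatment only neither was called (0.0799 against untreated and 0.129 against IL-1α). IL-1α against untreated had a log2 change of -0.11 (limma adjusted p = 0.759), and -0.21 within batch 2, where the probe was detected.

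Reck, the membrane-anchored inhibitor, was lower with both agents. Its log2 intensity was 8.26 and 8.14 in batch 1 and 9.91 and 10.31 in batch 2 without treatment. With IL-1α it was 7.57 and 7.54 in batch 1 and 9.51 and 9.49 in batch 2. With retinoic acid it was 8.09 and 7.84 in batch 1 and 9.48 and 9.36 in batch 2. Within each batch, all treated arrays lay below both untreated arrays.

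The log2 change of Reck with IL-1α was -0.63 (SE 0.14, limma adjusted p = 0.00512), with -0.64 in batch 1 and -0.61 in batch 2. With retinoic acid it was -0.46 (SE 0.14, limma adjusted p = 0.021), with -0.23 in batch 1 and -0.69 in batch 2. The call with retinoic acid was lost with scaling to one median (-0.26, limma adjusted p = 0.22), with no filter (0.0558) and within batch 1 (0.299). It was also lost without retinoic acid batch 2 replicate 1 (0.0591), retinoic acid batch 2 replicate 2 (0.0947) or untreated batch 2 replicate 2 (0.0858). With treatment only, neither agent was called (limma adjusted p = 0.849 with retinoic acid and 0.783 with IL-1α). The two-sided exact permutation test, which ignores the batches, gave p = 0.486 with retinoic acid and 0.457 with IL-1α. The 2 agents did not differ for Reck beyond the threshold (log2 change 0.16, 95% interval -0.14 to 0.47, limma adjusted p = 0.425).

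The levels also differed between the batches. The 6 arrays of batch 1 did not overlap the 6 of batch 2 for 3 of the 7 probes, where 39.3% of all probes tested had this property. These were Reck (1.77 higher in batch 2 on the log2 scale), Timp2 (0.66 higher) and Timp3 ILMN_2614759, whose batch 1 arrays were undetected. That Timp3 probe passed the filter only through batch 2, so its place in this count is not support for a batch difference. Timp3 ILMN_2741096 averaged 0.62 higher in batch 2, and Timp1 had a difference of -0.81, with overlapping arrays in both cases. The Timp1 difference is one of normalised values. Its raw intensity had a similar range in the batches, from 4751.2 to 12014.7 in batch 1 and from 4458.7 to 11160.7 in batch 2.

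The size of the treatment effect was compared between batches by a treatment-by-batch term. It was called for 2 of the 7 probes with retinoic acid against untreated, where 2.86% of all probes were called. It was called for 0 with IL-1α against untreated (0 of the 7 at a limma adjusted p under 0.05, with 2 at an unadjusted p under 0.05 and 4.82% of all probes called), and for 3 with retinoic acid against IL-1α (8.76% of all probes). For Timp1 the retinoic acid change against IL-1α was lower in batch 2 by a difference of -0.71 (95% interval -1.14 to -0.29, limma adjusted p = 0.0371). The other differences belonged to Timp3 ILMN_2614759 and Timp4, which were undetected throughout batch 1, so that no change could be measured there. Both passed the filter only through batch 2, so their calls are not support for an effect that varies between batches. None of the calls with retinoic acid against untreated came from a probe detected in both batches. The Timp1 difference was not called without any 1 of the 8 IL-1α and retinoic acid arrays (limma adjusted p between 0.0725 and 0.139), nor with scaling to one median (-0.42, 0.365) or with the replicate number as a block (0.052).

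**Figure D3:**
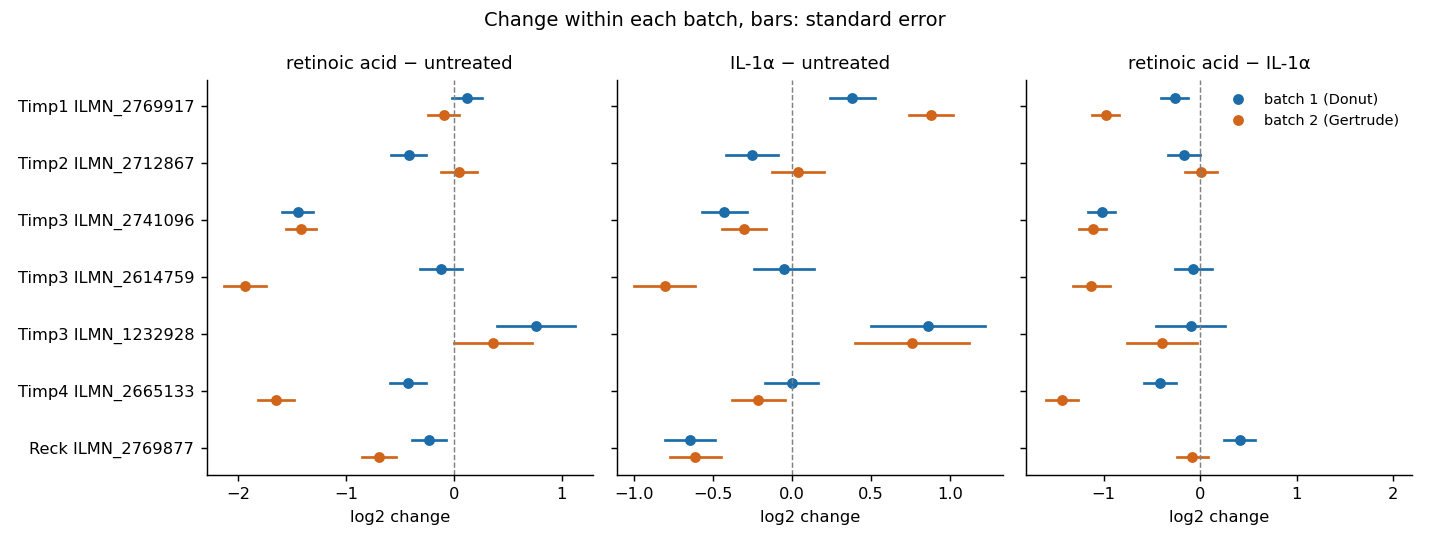
Log2 change of each probe within batch 1 (Donut) and batch 2 (Gertrude), with bars of 1 standard error, in 3 comparisons. Timp3 ILMN_2741096 changed by -1.45 and -1.42 with retinoic acid, whereas Timp3 ILMN_2614759 and Timp4 changed in batch 2 and were undetected in batch 1.

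Timp1, Timp3 and Timp4 each lie inside a synapsin gene (Syn1, Syn3 and Syn2) by the RefSeq annotation of GRCm38.p6. Timp1 and Timp4 are on the opposite strand to their host gene. Syn1 was detected on all 12 arrays and had a log2 change of 0.65 with IL-1α (limma adjusted p = 0.0133) and 0.46 with retinoic acid (limma adjusted p = 0.0545) against untreated. Whether the Syn1 and Timp1 signals are related was not tested. Neither Syn2 nor Syn3 was detected on more than 1 array.

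The upstream windows of Timp1, which was higher with IL-1α, and of Timp3, which had the largest measured fall with retinoic acid among the 5 genes, are shown. Each is the 250 bases before the annotated start, from RefSeq on GRCm38.p6, 5′ to 3′ on the plus strand, with CpG dinucleotides in capitals. The Timp1 window is chrX:20869916-20870165 and the Timp3 window is chr10:86300162-86300411.
Timp1: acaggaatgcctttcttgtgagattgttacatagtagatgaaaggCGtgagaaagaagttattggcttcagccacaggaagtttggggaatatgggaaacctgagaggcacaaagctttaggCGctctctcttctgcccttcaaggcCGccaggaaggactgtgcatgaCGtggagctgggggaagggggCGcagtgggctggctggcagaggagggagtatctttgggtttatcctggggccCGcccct
Timp3: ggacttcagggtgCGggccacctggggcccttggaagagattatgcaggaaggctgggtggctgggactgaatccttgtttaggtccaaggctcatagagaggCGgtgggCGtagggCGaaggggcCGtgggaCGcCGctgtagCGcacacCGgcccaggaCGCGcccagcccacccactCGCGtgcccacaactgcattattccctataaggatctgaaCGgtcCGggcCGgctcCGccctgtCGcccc
The Timp1 window had 54.4% G and C and 6 CpG, beside medians of 52.4% and 6 over the windows of 32851 annotated starts. The Timp3 window had 65.6% and 18 CpG. Timp2 (68.0%, 21 CpG) and Reck (68.4%, 19 CpG) were like Timp3, and Timp4 (53.6%, 2 CpG) was like Timp1. None of the 5 windows held the AP-1 letters TGANTCA, the NF-κB decamer or the nuclear receptor half-site AGGTCA on either strand. Those are found in 6.75%, 7.25% and 14.02% of all windows, and their absence says only that the letters are not in these 250 bases.

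The proteinases that these inhibitors act on moved in both directions. Of 23 Mmp genes on the array, 12 were kept, and with retinoic acid against untreated 5 were higher, 3 were lower and 4 did not pass the test. The 3 with the largest rises were Mmp11, stromelysin-3 (log2 change 2.35, SE 0.13, limma adjusted p = 2.32e-08), Mmp10, stromelysin-2 (2.16, SE 0.12) and Mmp14, the membrane-type enzyme that TIMP-2 and TIMP-3 inhibit (2.07, SE 0.17, limma adjusted p = 8.41e-07). The gelatinases Mmp2 (1.01) and Mmp9 (1.58) were also higher. Mmp3, stromelysin-1, was lower (log2 change -2.06, SE 0.26, limma adjusted p = 4.63e-05), as were Mmp12 (-0.89) and Mmp16 (-0.41). Mmp12 was detected on 2 of 4 retinoic acid and 3 of 4 untreated arrays, so its value includes undetected readings. Mmp13, the main collagenase of mouse cartilage, had a log2 change of 0.16 (limma adjusted p = 0.346). Its mean log2 intensity was 13.83 untreated and 13.99 with retinoic acid, near the highest normalised value of 14.24 on every array.

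With IL-1α, 3 Mmp genes were higher, 3 lower and 6 did not pass the test. Mmp10 had a log2 change of 2.79 (SE 0.12, limma adjusted p = 1.12e-08), and Mmp12 and Mmp9 had 0.78 and 0.61. Mmp14 and Mmp2, which did not pass, had 0.40 (limma adjusted p = 0.0917) and -0.01.

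Of 19 Adamts genes, 11 were kept. With retinoic acid 3 were higher, 2 lower and 6 did not pass the test. Adamts9, which encodes an aggrecanase, had a log2 change of 3.92 (SE 0.12, limma adjusted p = 2.9e-10). Adamts15 (1.46) and Adamts1 (1.30) were the other 2 that were higher, and Adamts3 (-1.01) and Adamts6 (-0.78) were lower. Adamts1 was detected on 3 of 4 retinoic acid and 2 of 4 untreated arrays, and Adamts6 on 3 of 4 retinoic acid arrays. Their values therefore include undetected readings. Adamts4, from which the deletion removes the catalytic domain, had a log2 change of 0.36 (limma adjusted p = 0.115). Adamts5, the other gene with such a deletion, was not among the 11 kept, so no change is given for it. With IL-1α 1 was higher (Adamts7, 0.77, detected on 3 of 4 untreated arrays), 4 were lower and 6 did not pass. Adamts9 had -0.20 (limma adjusted p = 0.236) with IL-1α. The Timp3 probe ILMN_2741096 and Adamts9 thus had log2 changes of -1.43 and 3.92 in the same retinoic acid arrays.

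Of 28 Adam genes, 8 were kept, and with retinoic acid 1 was higher, 2 were lower and 5 did not pass the test. Adam17, the sheddase that TIMP-3 inhibits, had a log2 change of -0.13 (limma adjusted p = 0.443) with retinoic acid and 0.25 (limma adjusted p = 0.127) with IL-1α. Adam15 was lower with both agents, by log2 changes of -1.13 and -0.66.

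Among 9 genes for binding partners and receptors of TIMPs and RECK, 7 were kept. With retinoic acid 4 were higher and 0 lower, of which Wnt7b passed the filter only through the retinoic acid arrays and so had to be higher, and with IL-1α 1 was higher and 0 lower. Lrp1, the endocytic receptor that clears TIMP-3, had log2 changes of 0.60 (SE 0.13, limma adjusted p = 0.00289) with retinoic acid and 0.45 (limma adjusted p = 0.0213) with IL-1α. Cd63, the tetraspanin that binds TIMP-1, had 0.14 (limma adjusted p = 0.399) and 0.11 (limma adjusted p = 0.528). The TIMP-2 receptor subunits Itga3 (0.67) and Itgb1 (0.46) were higher with retinoic acid. Wnt7b, the ligand whose receptor complex contains RECK, was detected on 4 of 4 retinoic acid arrays and on 0 of 4 untreated and 0 of 4 IL-1α arrays. Its co-receptor Gpr124 was detected on 2 of 4 retinoic acid and 2 of 4 untreated arrays.

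Among 9 other genes for inhibitors of matrix proteinases or related proteins, only 2 were kept. Pcolce, which enhances procollagen processing and has a TIMP-like domain, was lower with IL-1α by a log2 change of -2.07 (SE 0.12, limma adjusted p = 1.19e-07). With retinoic acid it had 0.28 (limma adjusted p = 0.0873). Spock2, a testican, was detected on 4 of 4 retinoic acid arrays, on 1 of 4 untreated and on 0 of 4 IL-1α arrays.

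**Figure D4:**
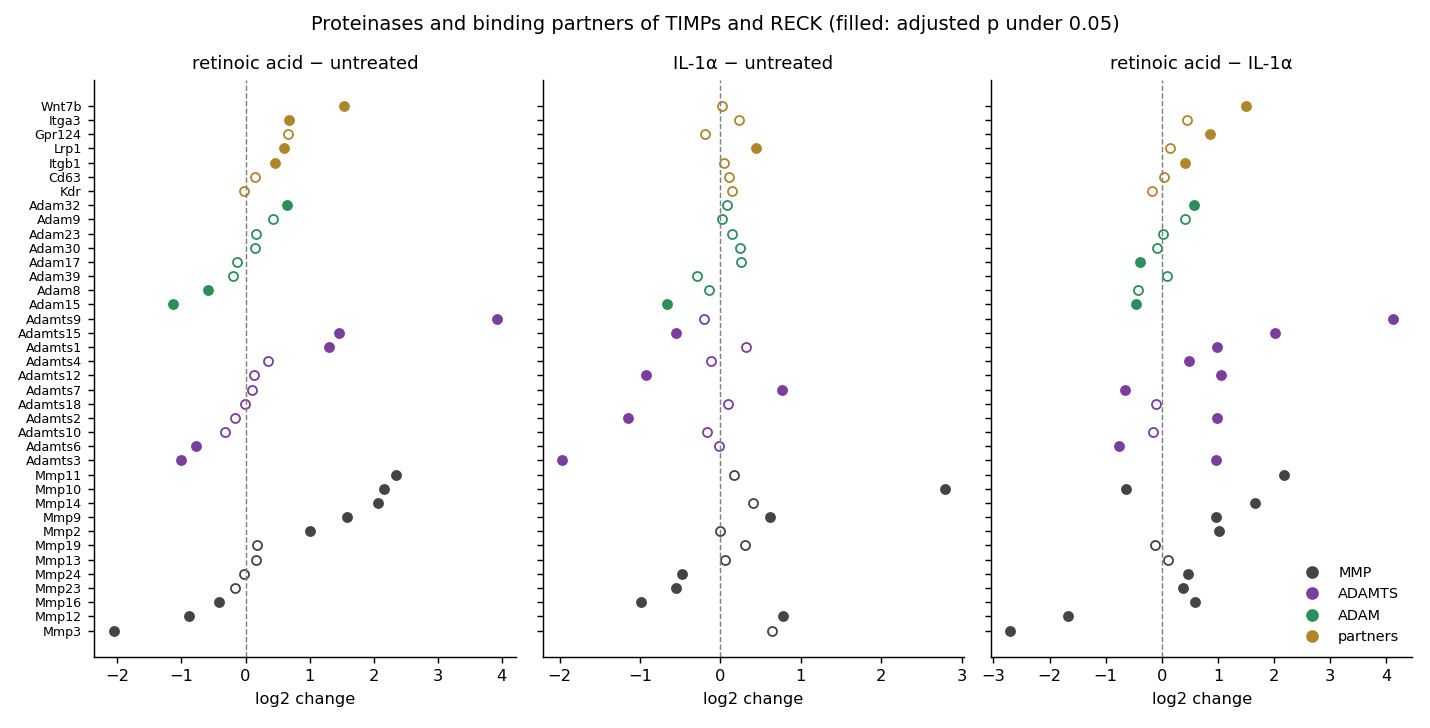
Log2 change of the kept Mmp, Adamts and Adam genes and of binding partners (rows, coloured by family) in 3 comparisons, filled where the limma adjusted p was under 0.05. Adamts9, at 3.92, is the highest point with retinoic acid against untreated, and Mmp3, at -2.06, the lowest.

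Marker genes of other cell types moved with the treatments, and their part in the inhibitor changes was not tested. Markers are counted as higher or lower against untreated at a limma adjusted p under 0.05. With retinoic acid, 6 of 7 kept fibroblast markers were lower and 1 higher, 6 of 8 macrophage and osteoclast markers were higher and 5 of 7 neutrophil markers were lower. With IL-1α, 7 of 7 fibroblast markers were lower, and 3 of 8 macrophage and osteoclast markers were higher and 3 lower. With IL-1α, 0 of 7 neutrophil markers passed the limma test (2 at an unadjusted p under 0.05), and 3 of 7 endothelial markers were lower. With retinoic acid 1 endothelial marker was higher and 1 lower. The summed intensity of fibroblast markers lay between 3175 and 8150 untreated, 1817 and 3382 with IL-1α and 2466 and 6037 with retinoic acid. Macrophage and osteoclast markers summed to 4461 to 6757 untreated, 9170 to 10199 with IL-1α and 7633 to 10610 with retinoic acid. Neutrophil markers summed to 9708 to 16156 untreated, 16871 to 17750 with IL-1α and 5625 to 14752 with retinoic acid. Endothelial markers summed to 1991 to 2511, 1004 to 1364 and 2196 to 2550 in the same order. Postn, on the fibroblast list, was detected on 0 arrays.

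The brightest Timp3 probe followed Sox9, the transcription factor that drives chondrocyte differentiation, more closely than any other gene under the likeness rule used. The measure was the Pearson correlation over 12 arrays after each batch was centred on its own mean, and it was 0.998 for Sox9, 0.995 for Scin and 0.994 for Pycr1. The correlation of Timp3 with Sox9 was 0.999 in batch 1 and 0.998 in batch 2, with 6 arrays each, and 0.794 over the uncentred levels. The arrays share their 3 treatments, so genes with the same treatment response correlate. Sox9 had log2 changes of -1.91 (SE 0.12, limma adjusted p = 5.38e-08) with retinoic acid and -0.44 (SE 0.12, limma adjusted p = 0.012) with IL-1α, beside -1.43 and -0.36 for Timp3. Aggrecan (Acan) had larger changes, of -4.22 and -1.56.

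**Figure D5:**
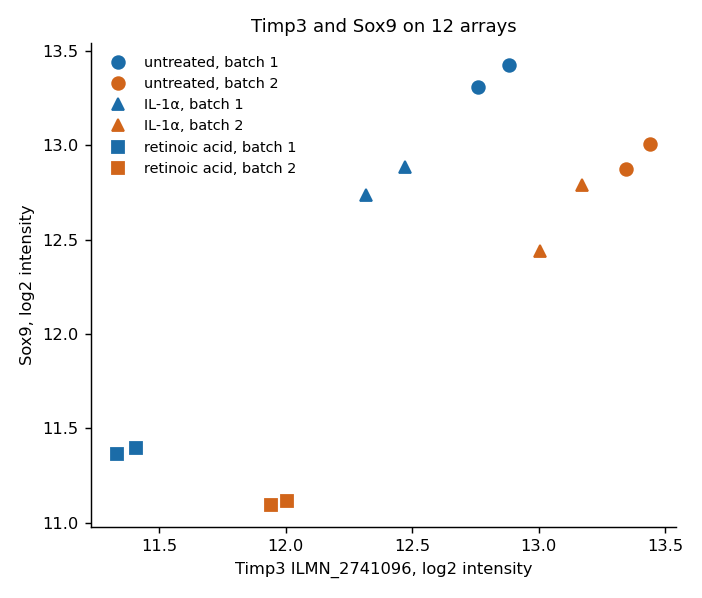
Log2 intensity of Timp3 ILMN_2741096 (x axis) and Sox9 (y axis) on each of the 12 arrays, with treatment by shape and batch by colour. Within each batch the 3 treatments lie along 1 line with retinoic acid lowest, and the line of batch 2 is displaced to higher Timp3.

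By the same measure the genes most like Timp1 were Cxcl2, a neutrophil chemokine (0.973), Cfb, complement factor B (0.973) and Ube2f (0.969). Those most like Reck were Egfl5 (0.953), B130038B15Rik (0.946) and Loxl4, a lysyl oxidase (0.937). Timp2 was most like Nol6 (0.871), Pdcd4 (0.866) and D030063E12 (0.863). Timp4 gave 1110017I16Rik (0.977), Plac9 (0.970) and Calr3 (0.958), but it was undetected on 8 of the 12 arrays, so these values rest largely on background readings. The other Timp3 probes had different neighbours, with Osbpl1a (0.965) and Ptgir (0.949) for ILMN_2614759 and A230021I18Rik (0.977), Ppp1ca (0.958) and Tmem88 (0.95) for ILMN_1232928. ILMN_2614759 was undetected on all 6 arrays of batch 1, so its values there are background readings.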

How the data were processed

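The authors deposited bead array intensities on a linear scale, with no background subtraction or normalisation, in 1 table of 12 arrays. Beside each intensity the authors deposited a detection score, a fraction between 0 and 1 in a column named as a p-value. It rises with intensity (Spearman at least 0.996 on each array), so detection p was taken as 1 minus it. The labels name limma for the authors' processing, and the bead summary software is not given in the sources used here. The neqc function of limma 3.58.1 (R 4.3.3) was applied (background from detection p, quantile normalisation, offset 16, log2). Probes were kept at a detection p under 0.05 on at least 4 of 12 arrays.

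The model (lmFit, eBayes) had terms for treatment and for the 4 combinations of batch and replicate, as in the paper's methods, with Benjamini-Hochberg adjustment over all 18200 kept probes. A treatment-by-batch model gave the changes within each batch. Same-numbered arrays deviated together in only some pairs (correlations 0.003, 0.062 and 0.014 in batch 1 and 0.182, -0.108 and 0.391 in batch 2), so the numbers were not shown to pair the arrays. For a group with no detected array, the fold is a bound, with that group read on each array at the higher of its own value and the lowest detected signal. Every probe of the 5 genes was shown apart. A listed gene was represented by its brightest kept probe, and likeness by the 3 symbols of highest correlation among probes whose batch-centred SD was at least 0.3, of which 1 is not reported here. The members, lists and rules were chosen with earlier results of these data known. The functions that fit the models were run on simulated log2 values drawn around the fitted values of the normalised data. Background correction, normalisation and the filter were not tested in that way. Alternatives changed the background offset, normalisation, filter, block and arrays. The number of arrays limits the precision.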

Additional observations from a re-analysis of the deposited data

Results flagged for a closer look

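Among 23 groups of 4 or 6 values examined for a value far from the others, of which chance marks about 1 in 20, 2 were marked. Timp3 ILMN_1232928 read 4.77 on untreated batch 2 replicate 2, against 6.26 to 6.53 on the other untreated arrays, and the gap was 0.843 of the range. The same array had 19485 detected probes, against 16732 to 17212 on the other arrays of batch 2, with a gap of 0.826 of the range.

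The treatment effect differed between batches for 5 single values, by limma's test of the difference. For Timp1 the change with retinoic acid against IL-1α differed by -0.71, from -0.26 in batch 1 to -0.98 in batch 2. Timp3 ILMN_2614759 differed by -1.81 for retinoic acid against untreated and by -1.06 for retinoic acid against IL-1α. Timp4 differed by -1.22 and by -1.01 in the same comparisons. Timp3 ILMN_2614759 and Timp4 were undetected on all 6 arrays of batch 1 and passed the filter only through batch 2. Their differences are therefore not support for an effect that varies between batches. Batch and mouse line cannot be told apart.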

How the results depend on the processing

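Over the alternatives to single changes, 401 kept their direction and side of the threshold, 44 lost the call, 6 gained one and 11 turned direction, none of them a called change. The fall of Timp3 ILMN_2741096 with retinoic acid, against untreated and against IL-1α, kept its call in every alternative run. For retinoic acid against untreated, 4 probes called became 2 with no filter, 2 with detection on all 12 arrays, 1 with treatment only and 1 within batch 1, and 1 to 4 when 1 array was left out, with 1 without untreated batch 2 replicate 2 and 2 without retinoic acid batch 2 replicate 2. For IL-1α against untreated, 4 became 2 with scaling to one median and 0 with treatment only, and 2 to 4 when 1 array was left out, with 2 without any batch 1 array of the 2 groups or without IL-1α batch 2 replicate 2. For retinoic acid against IL-1α, 3 became 1 with treatment only and 1 within batch 1. Effects that differed between batches numbered 2 for retinoic acid against untreated, 0 with detection on all 12 arrays, and 1 to 2 when 1 array was left out, with 1 without retinoic acid batch 1 replicate 1 or any untreated, IL-1α or retinoic acid array of batch 2 other than retinoic acid replicate 2. For retinoic acid against IL-1α they numbered 3, then 1 with scaling to one median, 1 with detection on all 12 arrays, and 0 to 3 when 1 array was left out, with 0 without retinoic acid batch 1 replicate 1, IL-1α batch 1 replicate 2 or either IL-1α array of batch 2. Without the replicate block, with treatment and batch only, the counts were 4, 4 and 3, and adding the replicate block to the test of batch differences gave 2, 0 and 2, so pairing by number turned no count by over 1.5 times. Uncalled changes that turned direction were Timp1 with retinoic acid (-0.10 within batch 2, and -0.10 to 0.13 when 1 array was left out), Timp2 with retinoic acid (0.012 with scaling to one median, 0.047 within batch 2), Timp2 with IL-1α (0.037 within batch 2), Timp2 with retinoic acid against IL-1α (0.031 with scaling to one median, 0.010 within batch 2), Timp3 ILMN_1232928 with retinoic acid against IL-1α (-0.44 to 0.074 when 1 array was left out) and Reck with retinoic acid against IL-1α (-0.082 within batch 2). Scaling to one median moved the median of all probes with retinoic acid against untreated from 0.02 to 0.14, and relative to that median the Timp3 fall stays a fall. It moved the calls over all probes from 3320 higher of 6436 to 3426 higher of 5222, and for IL-1α against untreated from 5334 calls to 3104. With treatment only, the calls over all probes were 2215, 1327 and 1984 in the 3 comparisons. The causes were not tested.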
